A study of Homo sapiens with 13 samples.

Results

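Reproducible H3K4me1 regions that overlapped a reproducible H3K4me3 region by at least 1 bp numbered 551 of the 23538 H3K4me1 regions found in PANC1 cells, or 2.34% (exact 95% interval 2.15% to 2.54%). They met 536 of the 15638 H3K4me3 regions, or 3.43% (3.15% to 3.72%), in 552 pairs of regions. A reproducible region is a stretch of merged peaks of both libraries of a target that holds a peak from each, on chromosomes 1 to 22 and X. The regions were chosen by their measured H3K4me1 and H3K4me3 peaks, so the positions, widths and strengths of those marks are given as a description without a test. H3K27ac, the factor peaks and the gene positions took no part in the choice.

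PANC1 is an established human pancreatic ductal carcinoma line. The 12 libraries all came from a derivative that stably expresses BRG1, labelled BRG oe, so parental PANC1 cells do not stand beside them for comparison. CUT&RUN, which cuts out the DNA beside an antibody-bound protein, was run on mildly crosslinked cells with 2 replicates for each of 6 targets: H3K4me1, H3K4me3, H3K27ac, BRG1, NRF2 and SMARCC1. The labels do not say whether replicates were separate cultures, and shares in the 2 single libraries are given as the spread. The ductal epithelial markers KRT18, KRT19, SOX9, MUC1 and EPCAM carried H3K4me3 at their start, and KRT7 and KRT8 did not. H3K4me3 also stood at 4 of 4 mesenchymal markers, 0 of 5 acinar, 0 of 4 endocrine, 0 of 3 endothelial and 1 of 4 leukocyte markers (CD14). Of all 19974 coding genes, 11795 had an H3K4me3 region, and the marker counts were not tested against that share. No H3K4me3 region of the listed markers was met by H3K4me1, and among the 11795 coding genes 467 (3.96%) were.

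H3K4me1 and H3K4me3 are the mono- and trimethylated forms of the same lysine of histone H3. Trimethylation is laid down at active and CpG-rich promoters, mainly by the SET1 and MLL1/2 complexes, whereas monomethylation by MLL3 and MLL4 is typical of enhancers and of the shoulders of active promoters. H3K27ac, added by p300 and CBP, accompanies activity at both kinds of element. BRG1 (encoded by SMARCA4) is the ATPase and SMARCC1 a core subunit of BAF chromatin remodellers, and NRF2 (NFE2L2) is the transcription factor of the antioxidant response.

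Promoter sequences are shown for genes at which the marks met in different ways, and for the strongest coding promoter that H3K4me1 did not meet. Each run covers 250 bases before to 50 bases after a RefSeq start (GRCh38.p14), 5′ to 3′ along the gene, and capitals mark bases under the member H3K4me1 region. At TXNL4A (chr18:79988514-79988813, minus strand) and CEP43 (chr6:166999147-166999446, plus strand) the H3K4me1 region lay downstream, so that no base is in capitals. At MME (chr3:155079761-155080060, plus strand) H3K4me1 covered all 300 bases. At SMIM10 (chrX:134990741-134991040, plus strand), where BRG1 was also found, it covered the last 62 bases. TMEM268 (chr9:114611041-114611340, plus strand) is the best ranked SMARCC1-bearing promoter with a sequence in the table. ACTN4 (chr19:38647399-38647698, plus strand) carried the strongest H3K4me3 region at a coding gene that no H3K4me1 region met.
TXNL4A: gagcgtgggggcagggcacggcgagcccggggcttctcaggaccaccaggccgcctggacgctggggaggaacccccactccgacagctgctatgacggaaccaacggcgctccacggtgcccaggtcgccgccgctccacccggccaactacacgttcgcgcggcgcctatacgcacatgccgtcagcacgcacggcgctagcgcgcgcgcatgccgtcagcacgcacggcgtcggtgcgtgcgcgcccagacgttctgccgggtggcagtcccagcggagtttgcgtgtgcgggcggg
CEP43: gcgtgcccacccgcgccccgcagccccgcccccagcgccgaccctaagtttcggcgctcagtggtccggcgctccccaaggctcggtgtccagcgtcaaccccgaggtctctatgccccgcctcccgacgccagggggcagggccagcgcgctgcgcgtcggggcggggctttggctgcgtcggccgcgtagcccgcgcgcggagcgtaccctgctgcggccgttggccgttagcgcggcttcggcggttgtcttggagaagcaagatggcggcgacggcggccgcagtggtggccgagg
MME: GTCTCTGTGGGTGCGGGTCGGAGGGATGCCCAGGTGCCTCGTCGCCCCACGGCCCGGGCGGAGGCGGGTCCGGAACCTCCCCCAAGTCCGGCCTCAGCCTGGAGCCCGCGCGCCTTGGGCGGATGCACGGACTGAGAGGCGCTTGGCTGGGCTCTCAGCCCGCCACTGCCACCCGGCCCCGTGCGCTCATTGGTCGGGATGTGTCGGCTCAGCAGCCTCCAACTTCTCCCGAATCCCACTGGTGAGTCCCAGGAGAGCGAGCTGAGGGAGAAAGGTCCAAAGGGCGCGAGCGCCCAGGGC
SMIM10: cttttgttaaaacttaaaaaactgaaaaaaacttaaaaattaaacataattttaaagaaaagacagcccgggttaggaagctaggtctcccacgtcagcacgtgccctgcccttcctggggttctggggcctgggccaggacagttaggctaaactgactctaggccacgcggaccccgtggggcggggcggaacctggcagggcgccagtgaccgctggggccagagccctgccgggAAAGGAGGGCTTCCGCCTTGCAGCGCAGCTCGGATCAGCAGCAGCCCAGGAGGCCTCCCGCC
TMEM268: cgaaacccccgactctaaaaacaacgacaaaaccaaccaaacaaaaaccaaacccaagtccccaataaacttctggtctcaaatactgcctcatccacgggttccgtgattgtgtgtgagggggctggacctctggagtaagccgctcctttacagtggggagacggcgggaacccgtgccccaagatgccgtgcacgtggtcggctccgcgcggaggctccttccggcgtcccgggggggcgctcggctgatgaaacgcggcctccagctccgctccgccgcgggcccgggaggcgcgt
ACTN4: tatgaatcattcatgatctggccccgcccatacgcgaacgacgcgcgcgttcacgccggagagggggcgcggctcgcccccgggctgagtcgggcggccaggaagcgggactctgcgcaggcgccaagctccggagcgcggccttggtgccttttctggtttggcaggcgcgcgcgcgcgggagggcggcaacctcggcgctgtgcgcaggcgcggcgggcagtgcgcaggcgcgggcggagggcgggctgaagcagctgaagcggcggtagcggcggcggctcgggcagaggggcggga

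The 6 windows differed in CpG content. They held 43 CpG pairs at TXNL4A, 45 at CEP43, 27 at MME, 15 at SMIM10, 29 at TMEM268 and 47 at ACTN4. Over all 421 coding promoter windows whose start lay inside a met H3K4me3 region the median was 30 CpG pairs (quartiles 21 to 37), against 28 (21 to 35) for 10426 windows in other H3K4me3 regions and 8 (3 to 22) for 11285 windows in none. Of the 421 starts, 16 (3.80%) lay under the member H3K4me1 region itself, and these windows had a median of 10.5 CpG pairs (8.75 to 16.25). Searched on both strands, the GC box GGGCGG stood in 79.1% of the met windows, 74.9% of the other H3K4me3 windows and 56.3% of all 22132 coding windows. The CCAAT box (CCAAT) stood in 28.0%, 34.8% and 34.6%, and the TATA box (TATAAA) in 2.85%, 4.28% and 9.46%. The AP-1 motif TGANTCA stood in 2.61%, 3.40% and 6.15%. The met promoters were CpG-rich like the other H3K4me3 promoters, and the 16 starts that H3K4me1 covered were poorer in CpG. None of these sequence differences was tested.

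H3K4me1 met H3K4me3 mostly at its rim. Of the 551 members, 403 (73.1%, 69.2% to 76.8%) crossed an edge of the H3K4me3 region, 133 (24.1%, 20.6% to 27.9%) lay wholly inside it and 15 (2.72%, 1.53% to 4.45%) lay around it. The overlap had a median length of 312.5 bp (quartiles 215.75 to 449.25), which was 72.1% of the H3K4me1 region and 18.7% of the H3K4me3 region. Even the members that lay inside kept to the flank: the centre of their overlap lay at a median of 16.3% of the H3K4me3 width from the nearer edge, against 8.63% for those that crossed it. The H3K4me1 summit fell inside the H3K4me3 region in 71.9% and 70.1% of pairs in replicates 1 and 2. The H3K4me3 summit fell inside the H3K4me1 region in only 14.7% and 15.2%, and the summits of the marks were a median of 870.5 and 942.5 bp apart. Most met regions held 1 member (521 of 536), 14 held 2, and the region at PRKCD, the gene of protein kinase C delta, held 3.

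These shares depended on how regions were drawn. With every peak of a single H3K4me1 library counted as a region, the share wholly inside was 40.2% without replicate 1 and 40.8% without replicate 2, of 747 and 904 members. Without H3K4me3 replicate 1 or 2, 19.7% and 19.2% lay inside, of 549 and 588 members. Between 463 and 510 of the 551 members met within a given pair of H3K4me1 and H3K4me3 libraries, and 412 (74.8%, 70.9% to 78.3%) did so in all 4 pairs. The members nearest to the 1 bp limit overlapped by 6, 6, 7, 15 and 16 bp, and the H3K4me1 regions nearest to it on the other side lay 6, 13, 14, 15 and 19 bp away. A further 767 H3K4me1 regions lay within 1000 bp of H3K4me3 without touching it, and 20431 lay at least 5000 bp away.

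Both marks of the meeting pairs had strengths near those of the other regions of their kind, with H3K4me1 far weaker than H3K4me3. Strength is the highest fold enrichment of the authors' peaks in the region. Member H3K4me1 regions had median folds of 3.54 (range 1.74 to 7.82) in replicate 1 and 3.40 (1.85 to 7.13) in replicate 2, against 3.63 and 3.55 for the 22987 other H3K4me1 regions. Their median −log10 q was 0.738 and 0.525, against 0.939 and 0.790 for the others, and 57 members were found when the peaks of both marks were held to 1.3 or more, the usual limit of 0.05. Met H3K4me3 regions had median folds of 11.2 (2.03 to 51.9) and 12.1 (2.23 to 55.4), against 10.8 and 11.4 for the 15102 others and 11.8 and 12.9 for the 693 H3K4me3 regions with H3K4me1 within 1000 bp but no overlap. Their first quartiles were slightly lower than those of the others (5.43 and 5.72 against 5.58 and 5.77). Their median width was 1746 bp, against 1335 bp for the others and 1563 bp for the 693. The 16 pairs in which H3K4me1 surrounded H3K4me3 stood apart. There the H3K4me3 region had a median width of 394 bp and fold of 3.66, and the H3K4me1 region a fold of 4.20.

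**Figure D1:**
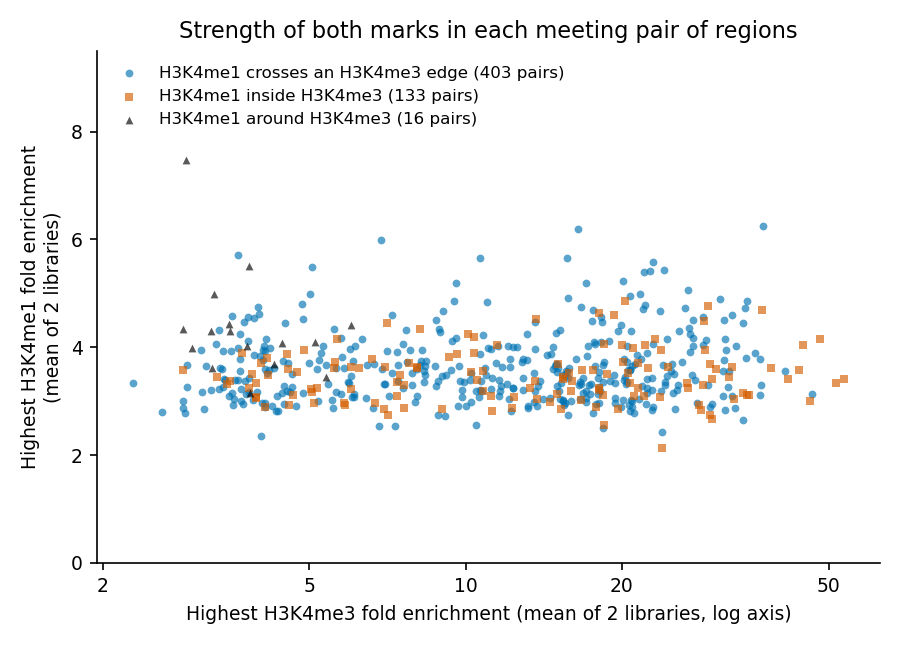
Highest fold enrichment of H3K4me3 (x axis, log scale) and H3K4me1 (y axis) in each of the 552 pairs, as the mean of 2 libraries, with 1 point per pair and colour and shape for the geometry. The 16 surrounding pairs (triangles) lie at the low end of H3K4me3, with a median fold of 3.66, and the other pairs spread over the whole H3K4me3 range.

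Among members wholly inside H3K4me3, the best ranked pairs by the strength of both marks stood at TXNL4A, MKI67, FBL and CCDC86. At TXNL4A, a component of the spliceosome, the H3K4me1 region of 497 bp on chromosome 18 (79986514 to 79987010) had folds of 4.90 and 4.47 and sat near the end of an H3K4me3 region of 3125 bp with folds of 41.2 and 33.2, its centre 1800.5 bp downstream of the start. At MKI67, the gene of the proliferation marker Ki-67, the H3K4me1 folds were 4.85 and 4.69 and the H3K4me3 folds 29.7 and 28.9. At FBL, the nucleolar methyltransferase fibrillarin, they were 4.27 and 4.72 within H3K4me3 of 24.5 and 33.1, and at CCDC86 3.83 and 4.46 within 43.2 and 53.1. These 4 regions all held H3K27ac, with folds between 5.56 and 8.28.

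At edges, the best ranked pair stood at CEP43, a centrosomal protein. Its H3K4me1 region (chromosome 6, 167000499 to 167001284) had folds of 5.51 and 6.98, overlapped the last 596 bp of an H3K4me3 region with folds of 38.1 and 36.5, and reached past its edge. RP9 followed with H3K4me1 folds of 5.21 and 4.50, then HK1, a hexokinase of the first step of glycolysis, with 4.90 and 4.90, and ARF1, a GTPase of Golgi vesicle transport, with 4.59 and 4.88. In all 4 pairs both the H3K4me3 region and the H3K4me1 region itself held H3K27ac.

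H3K4me1 surrounded H3K4me3 at only 3 coding genes. At MME, the cell surface peptidase neprilysin, H3K4me1 folds of 3.63 and 4.54 covered an H3K4me3 region of 357 bp with folds of 4.42 and 4.42, and no H3K27ac region was found. FAM78B had H3K4me1 folds of 4.70 and 3.98 around H3K4me3 folds of 2.76 and 2.95, also without H3K27ac. OAS2, an interferon-induced antiviral synthetase, had H3K4me1 folds of 3.77 and 3.14 around H3K4me3 folds of 5.56 and 5.22, with H3K27ac folds of 6.05 and 5.03. Of the 16 surrounded regions 5 held H3K27ac and 3 lay at a coding gene start.

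The longest overlaps and the regions with most members added other genes. At DLL3, a Notch ligand, 1111 bp were shared, but H3K4me1 differed between the libraries, with folds of 1.74 and 4.20, and H3K4me3 was weak, at 3.97 and 4.26. FBL shared 1054 bp and MAP3K10, a kinase of the JNK pathway, 1034 bp. The 3 members at PRKCD lay at the upstream edge, inside and at the downstream edge of a single H3K4me3 region of 3355 bp with folds of 33.3 and 35.0. TET3, an enzyme that oxidises methylated cytosine, had 2 members, centred 1755 and 3270.5 bp downstream of its start, and EFCAB14 had 2, centred 1128 and 2042 bp downstream.

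Members lay mostly on the transcribed side of the promoter. In 283 pairs the H3K4me3 region held coding gene starts of known strand on a single strand. The 4162 coding genes without a known strand were left out here. Some of these regions, such as that of PSMA7 and SS18L1, may therefore also hold a start of the other direction. The H3K4me1 centre was downstream of the start of known strand in 240 of the 283 pairs (84.8%, 80.1% to 88.8%), at a median of 1385 bp. It was upstream in 43, at a median of 714.5 bp. Inside pairs were downstream in 71 of 77 cases and edge pairs in 169 of 205. H3K4me3 itself reached further downstream in these regions. In 273 met regions with starts of known strand on a single strand it extended a median of 1535 bp downstream and 481 bp upstream. The medians were 1296 and 321 bp in 7076 other such regions. H3K4me1 regions that lay within 1000 bp of H3K4me3 without meeting it were downstream in 316 of 408 cases (77.5%, 73.1% to 81.4%). The preference for the downstream side was thus not limited to members, and the difference between the groups was not tested.

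**Figure D2:**
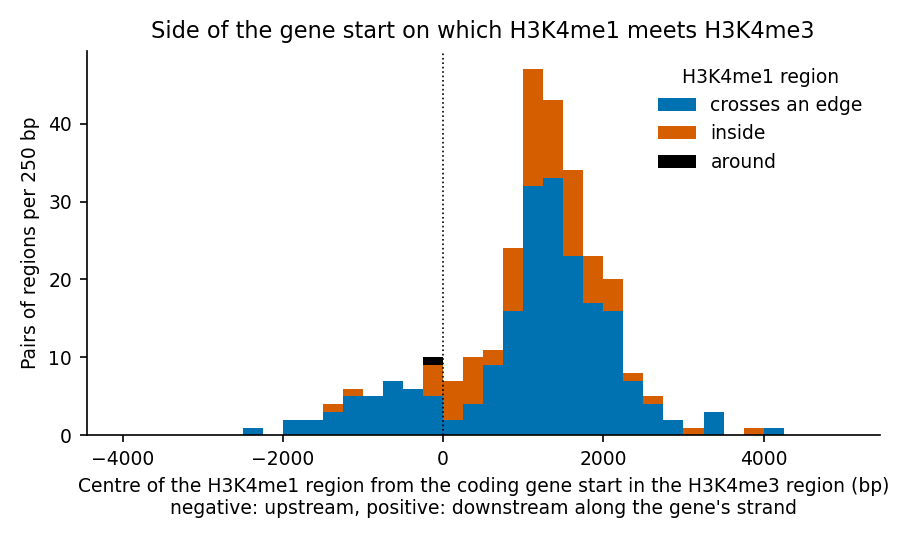
Distance of the H3K4me1 centre from the coding gene start in the H3K4me3 region, along the gene's strand, as counts per 250 bp coloured by geometry. The 283 pairs with starts of known strand on a single strand are shown. Most pairs lie to the right of the start, with a median downstream distance of 1385 bp.

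Met and other H3K4me3 regions lay at coding genes in similar shares. A coding gene start within 1000 bp was found for 421 of 536 met regions (78.5%, 74.8% to 81.9%) and 12298 of 15102 others (81.4%, 80.8% to 82.1%), with 81.3% of all H3K4me3 regions as background. For the 4162 coding genes without a known strand either end counted as a start, here and in other counts within 1000 bp of a start. At equal width and strength the odds were lower for met regions, with an odds ratio of 0.680 (0.535 to 0.867) and an adjusted p of 0.00271 (exact conditional Cochran-Mantel-Haenszel test, two-sided, 25 strata, Benjamini-Hochberg over 5 tests). The call was kept in 12 of 18 alternatives, among them 10 strata of width (0.596) and chromosome with 5 groups of width as strata (0.609). It was lost or turned in the other 6, including other definitions of a gene start. The odds ratio was 0.835 without strata (Fisher's exact test, adjusted p 0.102), 0.817 with only the genes whose strand is known (exact test, adjusted p 0.0534), and 1.02 and 1.03 with the start inside the region or within 2500 bp (adjusted p 0.902 and 0.891, exact tests).

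Of the 115 met regions away from coding starts, 72 (62.6%, 53.1% to 71.5%) lay inside a coding gene, against 1183 of 2804 other H3K4me3 regions away from starts (42.2%, 40.4% to 44.0%). Between coding genes lay 32 (27.8%, 19.9% to 37.0%) against 1108 (39.5%, 37.7% to 41.4%). A non-coding gene start was within 1000 bp in 11 (9.57%, 4.87% to 16.5%) against 513 (18.3%, 16.9% to 19.8%). The far end of a coding gene was close to 3 of the 115. These shares were not tested, and exons and introns could not be told apart with the gene table used.

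H3K27ac was found more often where H3K4me1 met H3K4me3. It lay in 388 of 536 met regions (72.4%, 68.4% to 76.1%) and in 9210 of 15102 others (61.0%, 60.2% to 61.8%), with 61.4% of all H3K4me3 regions as background. In the single libraries the shares were 75.9% and 77.1% for met regions (76.5% ± 0.792, SD, n = 2) and 65.2% and 67.1% for others (66.1% ± 1.37, SD, n = 2), so the groups differed by more than the spread between libraries. At equal width and strength the odds ratio was 1.63 (1.28 to 2.08) with an adjusted p of 0.000124 (exact conditional Cochran-Mantel-Haenszel test, two-sided). With 10 strata of width alone it fell to 1.29 (1.01 to 1.63, adjusted p 0.0416, exact test). With chromosome and 5 groups of width as strata it was 1.17 (adjusted p 0.199, exact test), which ends the call. In the 693 H3K4me3 regions that H3K4me1 flanked within 1000 bp without touching, the H3K27ac share was 73.7% (70.3% to 77.0%), and in the 14409 with no H3K4me1 within that distance it was 60.4% (59.6% to 61.2%).

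The H3K27ac shares were also compared within 5 equally large groups of H3K4me3 width. In the narrowest group (200 to 616 bp) 27 of 77 met regions held H3K27ac (35.1%, 24.5% to 46.8%) against 21.9% (20.5% to 23.4%) of others. In the next 3 groups the shares were 40.5%, 69.8% and 84.6% against 41.0%, 66.6% and 83.7%, within the intervals of the met regions. In the widest group they were 97.0% (93.0% to 99.0%) against 93.1% (92.1% to 94.0%). At coding gene starts 77.4% of met and 65.4% of other regions held H3K27ac, and away from starts 53.9% and 41.4%. Where H3K27ac was present its fold had medians of 4.55 and 4.61 in the 2 libraries in met regions and 4.22 and 4.24 in others. Flanked regions had 4.61 and 4.72, and these differences were not tested.

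**Figure D3:**
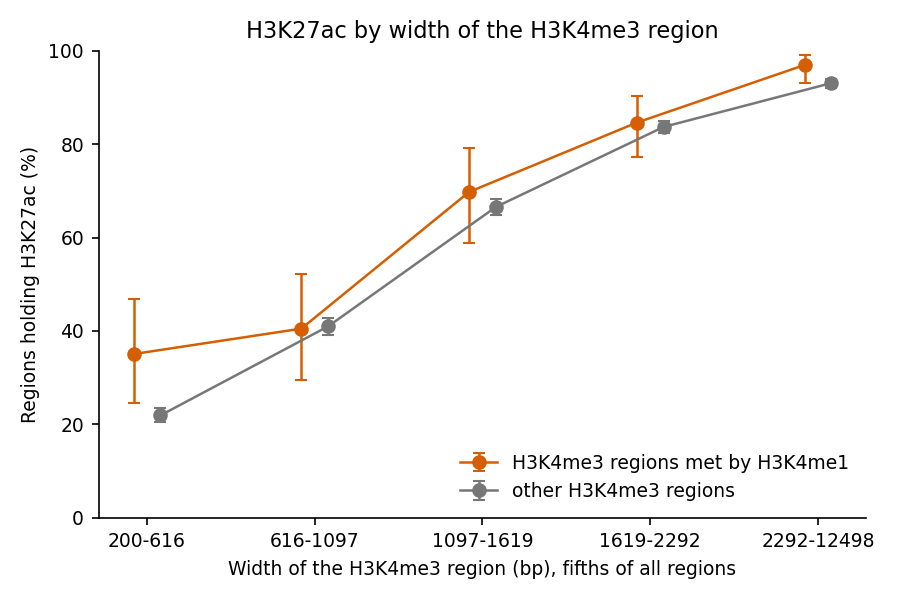
Share of H3K4me3 regions holding H3K27ac (y axis, percent) in 5 groups of H3K4me3 width (x axis, bp), for met and other regions, with exact 95% intervals as bars. The met regions lie above the others in the narrowest group (35.1% against 21.9%) and close to them in the middle groups (40.5% against 41.0%, 69.8% against 66.6% and 84.6% against 83.7%).

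In edge pairs acetylation covered the shared bases less than the H3K4me3-only bases and more than the H3K4me1-only bases. H3K27ac regions covered 42.6% of the overlap (42.0% and 42.1% in the single libraries), 54.9% of the rest of the H3K4me3 region (51.6% and 53.7%) and 19.9% of the H3K4me1 region beyond the edge (17.7% and 18.1%). The last value was close to the 18.9% of other H3K4me1 regions, and the H3K4me3 part lay above the 39.6% of other H3K4me3 regions. In inside pairs 49.4% of the overlap and 51.8% of the rest were covered, with 48.1% and 51.1% in replicate 1. In replicate 2 the order turned, with the overlap covered at 52.2% and above the rest. As whole regions, 257 of 551 members (46.6%, 42.4% to 50.9%) met H3K27ac, against 21.1% (20.6% to 21.6%) of other H3K4me1 regions.

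H3K27ac ran across the edge on the side where H3K4me1 crossed it. Over 384 H3K4me3 regions with a single crossed edge, an H3K27ac region covered the crossed edge in 25.3% (24.0% and 23.7% in the single libraries) and the opposite edge in 10.7% (8.85% and 9.64%). Edges of other H3K4me3 regions were covered in 7.44%. In 74 regions only the crossed edge was covered, in 18 only the opposite edge and in 23 both. At 100 bp outside, the H3K27ac shares were 16.1% and 5.21%, at 250 bp outside 9.38% and 9.11%, and at 250 bp inside 39.3% and 40.9%. A neighbouring H3K4me3 region covered 0.521% of the positions 250 bp outside crossed edges and 14.8% of those outside opposite edges, and its part in the convergence at that distance was not tested. It appeared on both sides of genes. Where H3K4me1 lay downstream of the start (162 regions) 22.8% of crossed and 9.88% of opposite edges were covered, and where it lay upstream (32 regions) 37.5% and 6.25%. In other H3K4me3 regions 4.42% of downstream and 8.42% of upstream edges were covered. No test was made of this pattern, which was described after the profiles were seen.

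**Figure D4:**
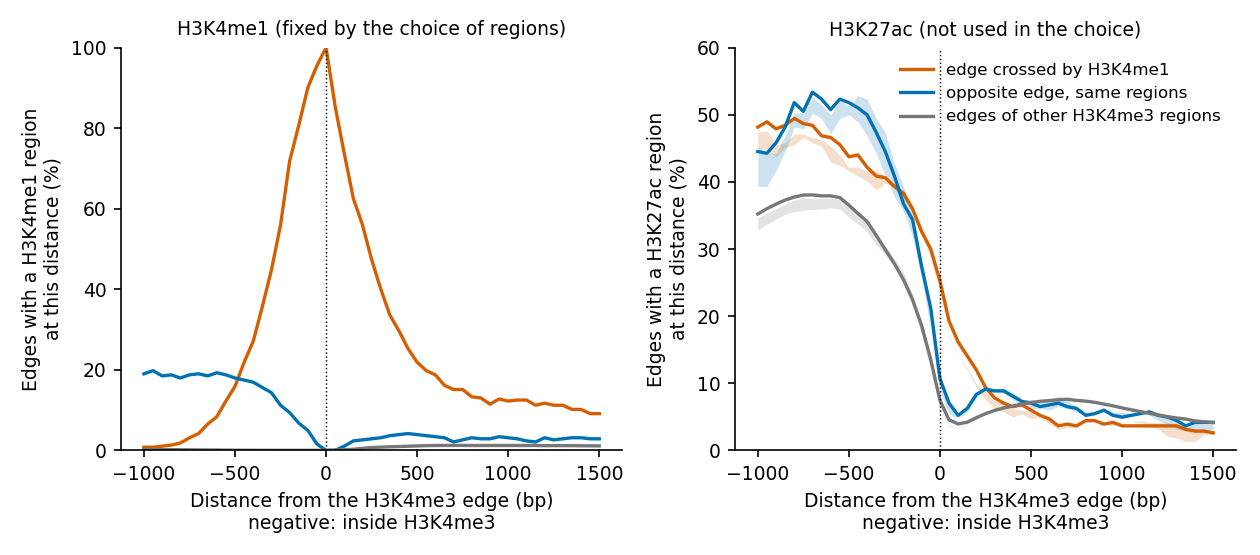
Share of H3K4me3 edges covered by an H3K4me1 region (left) or an H3K27ac region (right) at each distance from the edge in bp, negative inside, for crossed edges, opposite edges of the same 384 regions and edges of other regions; bands on the right span the single libraries, and lines show reproducible regions. At the edge itself H3K27ac covers 25.3% of crossed and 10.7% of opposite edges, and at 250 bp outside the shares are 9.38% and 9.11%.

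SMARCC1 sites were rare but more frequent where the marks met. The SMARCC1 libraries gave only 600 and 572 peaks and 169 reproducible regions, against 3213 and 6610 peaks and 2039 regions for BRG1. SMARCC1 sites lay in 14 of 536 met regions (2.61%, 1.44% to 4.34%) and 41 of 15102 others (0.271%, 0.195% to 0.368%), with 0.352% of all H3K4me3 regions as background. The 14 sites were weak, with mean folds from 2.01 to 4.10. In the single libraries 6.16% and 5.41% of met regions held a SMARCC1 peak, against 0.821% and 0.781% of others, with no overlap between the groups. The odds ratio was 12.4 (6.05 to 24.0) with an adjusted p of 1.6e-09 (exact conditional Cochran-Mantel-Haenszel test, two-sided). All 14 sites stood in H3K4me3 regions with H3K27ac, which 61.4% of all H3K4me3 regions and 72.4% of met ones held. The H3K27ac share of SMARCC1-bearing regions that were not met is not given here. Within acetylated H3K4me3 regions the odds ratio was 10.9 (exact test, adjusted p 7.62e-09). With same-numbered libraries analysed apart it was 7.72. Flanked H3K4me3 regions held a site in 3 of 693 cases (0.433%, 0.0894% to 1.26%).

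The strongest SMARCC1 sites of met regions lay at OAS2, with folds of 3.53 and 4.68, NDRG3, with 4.63 and 3.40, and TMEM268, with 3.46 and 4.19. At OAS2 the site (chromosome 12, 112978203 to 112978784) overlapped the H3K4me1 region. At NDRG3 and TMEM268 it lay in the H3K4me3 region away from the H3K4me1 region. In all, 9 of the 14 sites met the member H3K4me1 region itself, and 5 had no coding gene start within 1000 bp of the H3K4me3 region.

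BRG1 sites lay in 11 met regions (2.05%, 1.03% to 3.64%) and 101 others (0.669%, 0.545% to 0.812%), with 0.716% as background. The single libraries gave 3.73% and 8.77% for met regions and 1.47% and 4.21% for others, so that the libraries differed from each other more than the groups did, while both had the same direction. The odds ratio was 2.63 (1.25 to 4.99) with an adjusted p of 0.00726 (exact conditional Cochran-Mantel-Haenszel test, two-sided). Without H3K4me1 replicate 2 it was 1.80 (exact test, adjusted p 0.0731), which ends the call. Flanked H3K4me3 regions held a BRG1 site in 9 of 693 cases (exact interval 0.596% to 2.45%), with 2.45% and 7.36% in the single libraries, and that interval overlaps the one of met regions. The strongest sites lay at ZFAND1, with folds of 4.22 and 6.81, SMIM10, with 4.35 and 4.37, and VOPP1, with 4.09 and 4.50. All 11 regions held H3K27ac, as did 72.4% of all met regions. The H3K27ac share of BRG1-bearing regions that were not met is not given here. Of the 11 sites, 4 met the H3K4me1 region, as at SMIM10, where the H3K4me1, H3K4me3 and BRG1 regions all began at the same base. Among H3K4me1 regions the order was the other way: BRG1 lay on 4 of 551 members (0.726%, 0.198% to 1.85%) and on 597 of 22987 other H3K4me1 regions (2.60%, 2.40% to 2.81%), a comparison that was not tested.

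NRF2 lay in 1 met region (0.187%, 0.00472% to 1.04%) and 148 others (0.980%, 0.829% to 1.15%), with 0.953% as background. The odds ratio of 0.229 (0.00573 to 1.31) did not pass the test (exact conditional Cochran-Mantel-Haenszel test, two-sided, adjusted p 0.132), and its interval holds both a large decrease and no difference. It was 0.405 without NRF2 replicate 1, 0.839 without NRF2 replicate 2, 0.429 without H3K4me3 replicate 2 and 0.958 in acetylated regions alone. In the single libraries 8 and 2 met regions held an NRF2 peak (1.49% and 0.373%, against 1.92% and 1.09%). The 1 region was that of ZFAND1, a protein of stress granule clearance, where NRF2 had folds of 6.50 and 5.19 and where BRG1 and SMARCC1 (3.79 and 3.42) were also found. All 3 sites lay together over the H3K4me3 region, outside its H3K4me1 part.

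**Figure D5:**
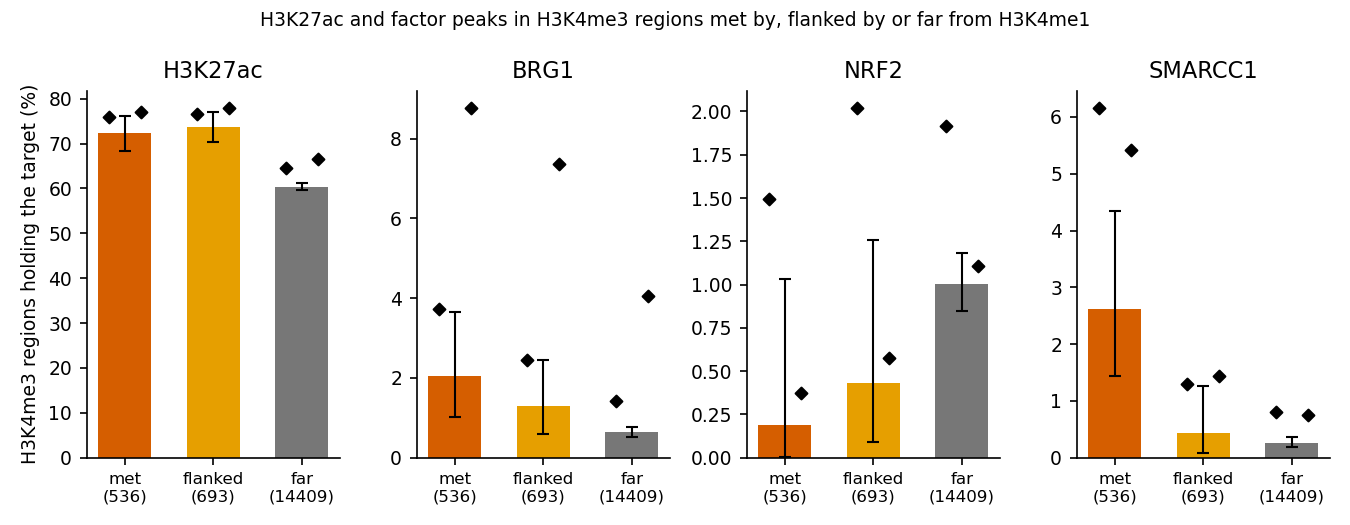
Share of H3K4me3 regions holding H3K27ac, BRG1, NRF2 or SMARCC1 (y axes, percent, different scales) for regions met by H3K4me1, flanked by it within 1000 bp and far from it, with the number of regions in brackets. Bars are reproducible peaks with exact 95% intervals and diamonds the 2 single libraries; SMARCC1 stands at 2.61% in met regions and 0.433% in flanked ones, and H3K27ac at 72.4% and 73.7%.

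Over all coding genes 467 of the 11795 with an H3K4me3 region were met, or 3.96%. On 13 pathway lists, 8 of the 255 genes with an H3K4me3 region were met, or 3.14% (exact interval 1.36% to 6.09%), a share near that of all genes. The YAP and TEAD list gave 1 of 19, TEAD4, a DNA-binding partner of YAP, with H3K4me1 folds of 4.13 and 3.18. The mesenchymal list gave 1 of 13, SNAI1, a repressor of E-cadherin, with 3.97 and 3.17. The NRF2 list gave 1 of 20, ME1, a malic enzyme that supplies NADPH, with 4.03 and 2.37. The BAF and PBAF list gave 2 of 27, SMARCD3, with 5.29 and 4.39, and BRD9, a bromodomain subunit of non-canonical BAF, with 2.82 and 3.07, in an H3K4me3 region shared with TRIP13. The proteasome list gave 2 of 31, PSMA7, in a region shared with SS18L1, and PSMC4, and the EGF receptor list 1 of 9, HBEGF, a ligand of that receptor, with 4.89 and 3.82. All 8 were edge pairs with H3K27ac in the H3K4me3 region. None was met among 11 pancreatic lineage factors, 13 AP-1 factors, 20 TGF-beta pathway genes, 12 epithelial genes, 14 KLF factors, 21 enzymes of H3K4 methylation and H3K27 acetylation or 46 ribosomal protein genes with H3K4me3. For the longest of these lists, 0 of 46 allows a share of up to 7.71% (exact interval), which includes the 3.96% of all genes.

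The targets themselves and other genes always looked up were not met, as for most coding genes with H3K4me3, of which 3.96% were met. SMARCA4 had an H3K4me3 region with folds of 29.0 and 24.3, and its nearest H3K4me1 region lay 13404 bp away. For NFE2L2 the folds were 18.9 and 20.4 and the distance 3846 bp, and for SMARCC1 14.9 and 11.1 and 231020 bp. KLF5, a pancreatic cancer transcription factor, came closest at 2515 bp, with H3K4me3 folds of 10.7 and 11.6 and no H3K27ac region. ACTN4, the strongest unmet region, had H3K4me3 folds of 66.2 and 64.4 and lay 3002 bp from the nearest H3K4me1 region.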

How the data were processed

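Peak lists of 12 CUT&RUN libraries were used, and the IgG library was not used here. Peaks were called per library. The build was GRCh38, and MACS2 2.2.7.1, Bowtie2 2.4.1, Picard 2.23.9 and SAMtools 1.9 were among the tools, per the submitters' processing notes; roles, settings and any control are not given in the sources used here. Strength is the fold enrichment, a ratio deposited by the authors. The −log10 q deposited by the authors served as a threshold in alternatives. The −log10 p and the score deposited by the authors were not used in a test. Depth is unknown, so absence of a peak can reflect a shallow library.

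Peaks of both replicates that overlapped or touched were merged, and regions with a peak from each were kept. Strength was the mean over the 2 libraries of the highest fold. Met and other H3K4me3 regions were compared with the exact conditional Cochran-Mantel-Haenszel test (two-sided, 25 strata: 5 groups of width by 5 of strength) with Fisher's exact test beside it, and Benjamini-Hochberg adjustment over 5 tests. Regions are not independent replicates of a condition, so the p-values do not measure variation between cultures. Share intervals are exact (Clopper-Pearson, 95%) and cover counting error only. The test was checked on simulated data with outcomes far commoner than the factor sites, so that check does not cover the factor tests.

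RefSeq tables of GRCh38.p14 gave 19974 coding genes, 15812 with a start and strand; the other 4162 were placed by either end. All 301 list symbols were found. A ductal marker of the marker list is not reported here. Named genes are the 4 best ranked pairs at coding genes for each geometry, the 3 strongest regions for each factor, the 3 longest overlaps, the 3 regions with most members, up to 3 genes per list and 13 genes always looked up. The members and lists were chosen with earlier results of these data known. Python 3.11.15, NumPy 2.4.6, pandas 2.3.3, SciPy 1.17.1 and matplotlib 3.10.9 were used. Alternatives were other overlaps, thresholds, region definitions, strata, gene windows, libraries left out and a replicate block. Chromosome strata, −log10 q of 1.3, shared bases as regions, acetylated regions only, stranded starts only, flanked regions left out and chromosome 19 left out were chosen after seeing the data.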

Additional observations from a re-analysis of the deposited data

How the results depend on the processing

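The SMARCC1 odds ratio kept its call in all 19 alternatives with a value (7.72 to 16.3). The H3K27ac call was lost with chromosome and 5 groups of width as strata (1.17). It was kept in the other alternatives with a value, but with 10 strata of width the odds ratio fell to 1.29. The BRG1 odds ratio kept its direction and lost its call at −log10 q of 1.3 or more (3.21) and without H3K4me1 replicate 2 (1.80). With a library left out it ranged from 1.80 to 3.83. NRF2 passed with peaks of either replicate (0.272) and with chromosomes as strata (0.162), and turned to 1.08 near coding starts. The coding start call was lost without strata (0.835), with chromosomes as strata (0.827), at −log10 q of 1.3 (0.595) and with stranded starts (0.817), and the odds ratio turned to 1.03 in a 2500 bp window and to 1.02 with the start inside the region. The causes were not tested. At −log10 q of 5 or more 1 member was left (100% inside, 0% crossing an edge), so no odds ratio could be estimated; nor could that of NRF2 at 1.3.

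The 551 members became 1344 with peaks of either replicate, 57 at −log10 q of 1.3, and 549 to 904 with a library left out. The share inside was 26.0% at 100 bp of overlap, 33.0% with either replicate, 17.5% at 1.3, 36.9% for bases shared by both replicates, 23.6% without chromosome 19, and 19.2% to 40.8% with a library left out. The share crossing an edge was 70.8%, 61.4%, 80.7% and 57.1% in the first 4 of these, and 58.0% to 71.0% with a library left out. The replicate block, with same-numbered libraries analysed apart, gave a mean of 832.5 members, 34.3% inside and 60.4% crossing, and odds ratios of 1.69 for H3K27ac, 2.13 for BRG1, 0.815 for NRF2, 7.72 for SMARCC1 and 0.627 for coding starts, with no call changed. The replicate numbers are not stated to pair the libraries. Peak lists hold no coverage, so partial enrichment under the authors' threshold is not seen.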

Other observations

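Members were unevenly spread over chromosomes. The share of H3K4me3 regions met was highest on chromosome 11 (50 of 806, 6.20%) and lowest on chromosomes 21 (0 of 152), 22 (1 of 381, 0.262%) and 13 (3 of 303, 0.990%). H3K4me1 regions per H3K4me3 region moved in the same direction in part, with 2.26 on chromosome 11 and 0.671, 0.354 and 0.941 on 21, 22 and 13. Their part in the shares was not tested.

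Chromosome 19 had the fewest H3K4me1 regions per H3K4me3 region (0.236). The share of its H3K4me3 regions that were met was also low (19 of 1093, 1.74%). By the other count, 21 of its 258 H3K4me1 regions were members. Of these, 13 lay within a single window of 2 Mb (38000001 to 40000000), the fullest of 367 windows with a member, where 11 of 44 H3K4me3 regions (25%) were met. The window also held 75 of the 258 H3K4me1 regions of the chromosome. DLL3, FBL, PSMC4 and SUPT5H lie in this window, and MAP3K10 just beyond it. ACTN4, the strongest H3K4me3 region at a coding gene that was not met, lies in the window as well. SUPT5H, an elongation factor gene with a SMARCC1 site, was chosen after its values were seen. On chromosome 19, 89.5% of met and 48.8% of other H3K4me3 regions held H3K27ac, from only 19 met regions. This gap was not typical. On chromosome 1, with 61 met regions, the shares were 65.6% and 64.1%. The met share was the lower one on chromosomes 6 (52.5% against 56.7%), 7, 10 and 13. It was the higher one on the other chromosomes with a met region. DNA copy number was not measured here, and its part in the cluster of members on chromosome 19 was not tested.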
